A study of Mus musculus with 8 samples.

Results

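The transcripts of 10 enzymes that make serine, glycine, one-carbon units and proline were followed in parietal bone cells of newborn mice, out of 31053 genes listed. They were chosen by their place in these pathways, with earlier results of these data known. The serine enzymes were Phgdh, Psat1 and Psph, the serine-to-glycine enzymes Shmt2 and Shmt1, the mitochondrial folate enzymes Mthfd2, Mthfd1l and Aldh1l2, and the proline enzymes Aldh18a1 and Pycr1. All 10 are listed in the gene table of every library.

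The data were 8 droplet single-cell RNA-seq libraries, 4 of wild type (WT) mice and 4 of heterozygotes (Het) whose Col1a2 allele replaces 1 glycine of the collagen α2(I) helix by cysteine, a model of osteogenesis imperfecta. Both genotypes came from the line B6.129(FVB)-Col1a2tm1Mcbr/J at P4 to P5 of age, and the knock-in allele is in the germline, so all cell types of a Het animal carry it. Cells of several animals of 1 genotype were pooled in each library, which was the replicate. Kit version 3 was used for WT S1, WT S2, Het S3 and Het S4, and kit version 3.1, with a later release of the counting software, for WT S5, WT S6, Het S7 and Het S8, so kit and software cannot be told apart. The study reports independent experiments at this age, and the sample labels do not say whether these match the kit versions.

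Of 68625 barcodes, 46420 cells passed quality control, and 2671 of them were osteoblasts (OBs) by Col1a1, Runx2, Sp7 and Ibsp. Following the study, OBs were staged by the share of their UMIs (unique molecular identifiers, each counting 1 captured transcript) that was Col1a1, the main collagen chain of bone. Early OBs (eOBs, 379 cells) were under 0.75%, differentiating OBs (dOBs, 1217 cells) up to 3.5% and mature OBs (mOBs, 1075 cells) above. A library held from 42 (S8) to 299 (S5) mOBs, and library totals ran from 30480239 to 85162035 UMIs. In mOBs the late OB markers Ifitm5 and Dmp1 together made up 0.0626% to 0.195% of UMIs. Their share was 0.110% and 0.126% in the WT libraries of kit version 3 and 0.195% and 0.170% in the Het ones, and 0.0675% and 0.0666% against 0.0626% and 0.0794% with kit version 3.1, and the part of this difference in the results was not tested.

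Serine is built from a glycolytic intermediate in 3 steps, and serine hydroxymethyltransferases split it into glycine and a one-carbon unit carried by folate. Mitochondria oxidise that unit to formate, which the cytosol uses for nucleotides and methyl groups, or burn it to CO2. Proline is made from glutamate in mitochondria and cytosol. Glycine and proline are the most frequent residues of the collagen triple helix, so a cell that secretes bone matrix uses both in large amounts, and several of these genes are known targets of the amino acid and mitochondrial stress response that acts through the transcription factor ATF4.

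The promoters of the members are shown because 4 of the genes printed rose together in Het mOBs, as described further on, and because the fifth, Pycr1, was the only one to hold a match to the motif searched for. RefSeq promoters (build GRCm38.p6) were matched by symbol for 9 of the 10 members, in 10 windows of 300 bases, and Aldh1l2 was the remaining gene. The 250 bases before the start, 5′ to 3′ on the strand of the gene, lie at chr3:98339970-98340219 (minus strand) for Phgdh, chr5:129787254-129787503 (minus) for Psph, chr6:83317605-83317854 (minus) for Mthfd2, chr10:3972825-3973074 (plus) for Mthfd1l and chr11:120643749-120643998 (minus) for Pycr1. Capitals mark a match to TGATGNAA, a form of the C/EBP-ATF composite element, searched on both strands.
Phgdh: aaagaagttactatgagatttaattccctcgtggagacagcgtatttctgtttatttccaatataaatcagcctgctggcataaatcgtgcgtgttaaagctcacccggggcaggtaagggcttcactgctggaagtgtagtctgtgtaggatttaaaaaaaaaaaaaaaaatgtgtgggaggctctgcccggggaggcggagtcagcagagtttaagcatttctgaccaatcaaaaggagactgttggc
Psph: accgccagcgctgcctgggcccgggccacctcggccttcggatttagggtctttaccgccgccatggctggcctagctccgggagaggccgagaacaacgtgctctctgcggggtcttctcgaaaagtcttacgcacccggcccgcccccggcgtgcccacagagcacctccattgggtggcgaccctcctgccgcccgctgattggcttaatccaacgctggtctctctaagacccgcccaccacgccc
Mthfd2: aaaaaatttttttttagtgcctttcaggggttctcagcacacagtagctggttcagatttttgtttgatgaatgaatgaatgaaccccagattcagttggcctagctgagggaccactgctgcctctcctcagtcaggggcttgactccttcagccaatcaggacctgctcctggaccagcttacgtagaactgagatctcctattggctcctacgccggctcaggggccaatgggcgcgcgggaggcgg
Mthfd1l: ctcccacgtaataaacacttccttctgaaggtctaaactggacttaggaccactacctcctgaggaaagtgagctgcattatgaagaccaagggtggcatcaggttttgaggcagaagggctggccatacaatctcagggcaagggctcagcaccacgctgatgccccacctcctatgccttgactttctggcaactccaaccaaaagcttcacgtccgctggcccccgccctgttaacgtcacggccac
Pycr1: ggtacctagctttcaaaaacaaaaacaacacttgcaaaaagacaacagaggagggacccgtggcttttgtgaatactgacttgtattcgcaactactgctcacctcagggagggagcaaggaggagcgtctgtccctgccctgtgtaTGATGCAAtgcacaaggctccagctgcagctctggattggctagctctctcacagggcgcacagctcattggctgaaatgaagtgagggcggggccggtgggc
Of 32851 promoters of this length, 1304 (3.97%) held TGATGNAA. Of the 10 member windows 1 did, that of Pycr1, where TGATGCAA lies 103 to 96 bases before the start. TTGCATCA, whose reverse complement is one form of the same motif and therefore overlaps it, was in 294 promoters (0.895%) and again in Pycr1 alone among the members. The palindrome TGACGTCA was in 588 promoters (1.79%) and in none of the 10 windows. The genes themselves lie, in GRCm38, on chromosomes 3 (Phgdh), 5 (Psph), 6 (Mthfd2), 10 (Shmt2, Mthfd1l and Aldh1l2), 11 (Shmt1 and Pycr1) and 19 (Psat1 and Aldh18a1).

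In Het mOBs 4 of the enzyme genes rose, 2 of serine synthesis and 2 of the mitochondrial folate pathway. Phgdh, Psph, Mthfd2 and Mthfd1l were called higher in Het than in WT mOBs, by 2.05 to 3.07 times, at an adjusted p under 0.05 by edgeR's quasi-likelihood test on UMIs summed per library, with kit version in the model. That is 4 of the 9 members tested, against 0.53% of all 9623 genes tested (51 genes, of which 36 were higher). The members were chosen with earlier results of these data known, so comparisons with all genes describe the set and do not test it. Of the 9, 8 were higher in Het, each of these with an unadjusted p under 0.05, and the members' median log2 fold change was 1.08, while over all genes the median was 0.01 and 11.2% had such a p. Shmt1 had 0 to 10 UMIs per library in mOBs and was not tested, and Psat1, Shmt2, Aldh1l2, Aldh18a1 and Pycr1 did not pass. Levels below are CPM, the gene's UMIs scaled to the same total of UMIs in each library's cells of a population. Since the 3′ assay counts each transcript once, they were not divided by gene length.

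Phgdh, which opens serine synthesis by oxidising phosphoglycerate, stood in mOBs at 47.4 and 50.6 in the WT libraries S1 and S2, at 191 and 181 in the Het libraries S3 and S4, at 23.2 and 21.2 in WT S5 and S6, and at 34.3 and 61.7 in Het S7 and S8. Both Het libraries were above both WT libraries within each kit version, while across kit versions the genotypes overlapped, since S7 was below S1 and S2. The fitted log2 fold change was 1.46 ± 0.21 (SE, n = 4 and 4; adjusted p = 0.00728). It was 1.86 within kit version 3 and 0.91 within kit version 3.1. In S8, a library of 42 mOBs, 1 cell gave 29.3% of the 41 Phgdh UMIs, and the level without that cell was 47.4, still above S5 and S6. The plot of all members by library sets the other enzymes beside it.

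**Figure D1:**
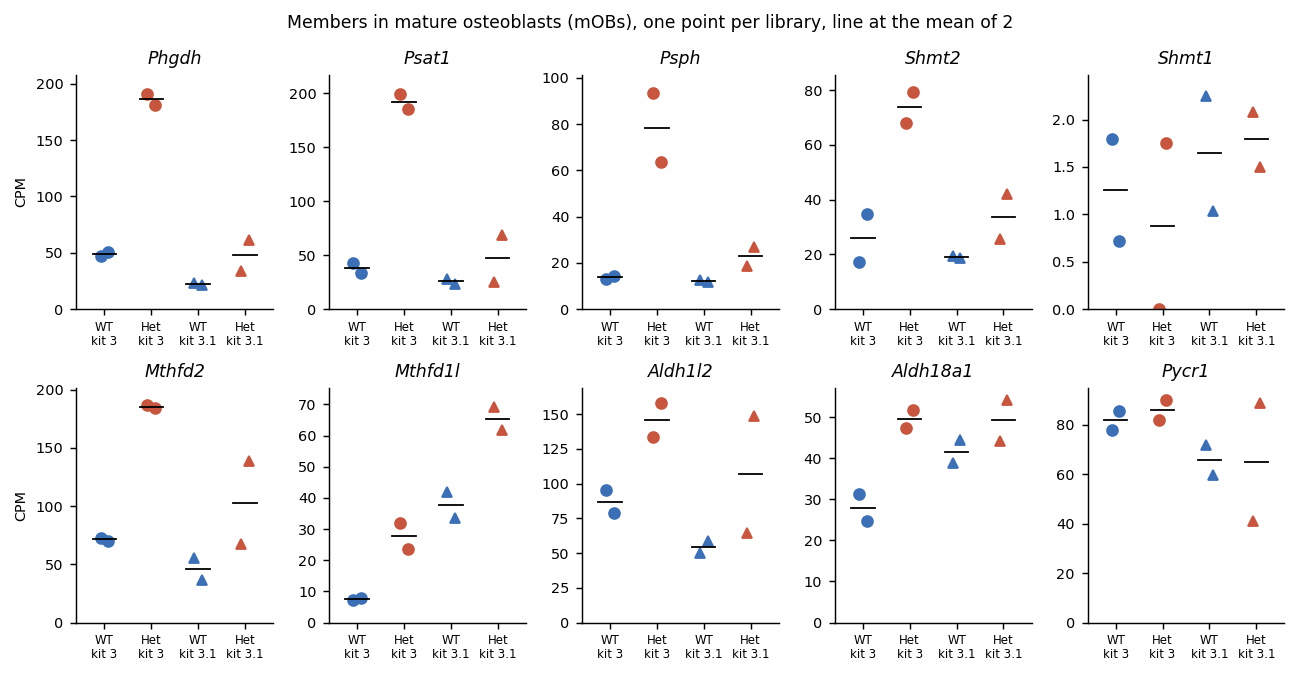
Level of each of the 10 enzyme genes in mOBs (y axis, CPM, from 0) by genotype and kit version (x axis; blue WT, red Het; circles kit version 3, triangles 3.1; the line is the mean of 2 libraries). In 6 genes (Phgdh, Psph, Shmt2, Mthfd2, Mthfd1l and Aldh1l2) both Het libraries lie above both WT libraries in each kit version, as do those of 7.59% of all 9623 genes tested, and Phgdh goes from 47.4 and 50.6 in WT to 191 and 181 in Het with kit version 3.

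Psat1, which transfers the amino group in the second step, was at 43.2 and 34.0 in S1 and S2 and at 199.8 and 185 in S3 and S4. In the later kit it was at 28.3 and 23.1 in WT and at 24.96 and 69.2 in Het, so that S7 lay between the WT libraries. Its log2 fold change of 1.52 ± 0.33 did not pass over all genes (adjusted p = 0.0712, edgeR). Psph removes the phosphate and frees serine. It was at 13.2, 14.5, 12.6 and 11.7 in the 4 WT libraries and at 93.2, 63.7, 18.7 and 27.1 in Het S3, S4, S7 and S8, which makes it the only member whose Het libraries were all above all WT libraries in mOBs, which held for 1.85% of all genes tested. The log2 fold change was 1.62 ± 0.30 (adjusted p = 0.0344), and by kit version it was 2.41 (3) and 0.73 (3.1). Summed, the 3 serine enzymes took 80.7 ± 24.2 CPM in WT mOBs and 287 ± 200 in Het mOBs (SD, n = 4 each), the large Het SD coming from 484 and 430 in S3 and S4 against 78.0 and 158 in S7 and S8.

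Shmt2, the mitochondrial enzyme that turns serine into glycine and a one-carbon unit, was at 17.4, 34.7, 19.6 and 18.7 in WT mOBs and at 67.9, 79.5, 25.5 and 42.1 in Het mOBs. WT S2 was set apart from the other WT libraries and overlapped Het S7, and the log2 fold change of 1.08 ± 0.24 did not pass (adjusted p = 0.0737, edgeR). Shmt1, its cytosolic counterpart, was at 0 to 2.25 in all 8 libraries, and at 0 to 10 UMIs it fell below the low-count filter of the main test.

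Mthfd2 oxidises the one-carbon unit in mitochondria. It was at 72.6 and 70.2 in WT and at 186 and 184 in Het with kit version 3, and at 55.1 and 36.6 against 67.1 and 138 with kit version 3.1. The rise was 1.17 ± 0.21 on the log2 scale (adjusted p = 0.0305, edgeR), and of the 4 genes called it differed least between kit versions, with 1.31 and 0.99.

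Mthfd1l, which releases formate, gave 7.20 and 7.96 in WT and 32.0 and 23.5 in Het with kit version 3, and 41.8 and 33.5 in WT and 69.1 and 61.7 in Het with kit version 3.1. Its WT level differed more between kit versions than between genotypes, and the Het libraries were above the WT libraries within each kit version (log2 fold change 1.04 ± 0.20, adjusted p = 0.0434, edgeR). Aldh1l2, which oxidises formyl-folate to CO2 and yields NADPH, was at 95.4, 78.9, 50.4 and 58.9 in WT and at 134, 158, 64.5 and 149 in Het. It too was higher in both Het libraries of each kit version, but its log2 fold change of 0.74 ± 0.21 did not pass (adjusted p = 0.171).

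The proline enzymes were not called. Aldh18a1, the synthase that starts proline from glutamate, was at 31.2, 24.6, 38.9 and 44.3 in WT mOBs and at 47.3, 51.8, 44.2 and 54.2 in Het mOBs (log2 fold change 0.42 ± 0.16, adjusted p = 0.332, edgeR). Pycr1, the reductase of the last step, was at 78.0, 85.4, 71.8 and 59.5 in WT and at 81.9, 90.0, 41.1 and 88.8 in Het. Its log2 fold change was −0.09 ± 0.19 (adjusted p = 0.925), so that Pycr1, the member with the highest mean in WT mOBs (73.7), showed the smallest difference. The 2 genes together gave 108 ± 3.12 CPM in WT and 125 ± 27.1 in Het mOBs.

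The calls rested on few libraries. Leaving out S1, S2 or S4 left 0 of the members called, leaving out S3 or S6 left 1, leaving out S5 or S8 left 4, and leaving out S7 gave 7, while 0.109% to 1.73% of all genes were called in these fits. Phgdh, Psph, Mthfd2 and Mthfd1l stayed higher in Het mOBs, with log2 fold changes from 0.73 to 2.41, in each of these fits and within each kit version. Within kit version 3 alone 7 of 9 members were called, against 5.26% of all genes, and within kit version 3.1 alone 0 of 9, against 0.0181%. The difference of the Het effect between kit versions was itself called by edgeR for 0 of the 9 members in mOBs (0.104% of all genes). An unadjusted p under 0.05 was reached by 5 of them (Phgdh, Psat1, Psph, Mthfd1l and Aldh18a1), against 10.9% of all genes. Only 1 of the 9 had a larger Het effect with kit version 3.1. The median difference, kit version 3.1 minus 3, was −0.87 on the log2 scale, against −0.02 over all genes. With so few libraries per kit version, the absence of calls does not show that the kit versions agree. In dOBs the difference was called for 0 of 9 (0.264%; 5 unadjusted, against 9.81% of genes) and in eOBs for 0 of 7 (1.07%; 2 unadjusted, against 13.6%). With all OBs summed it was called for 2 of 10, Psph and Mthfd1l, against 2.55% of all genes.

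The share of mOBs with a transcript of a member differed by gene and kit version. Phgdh was detected in 56.2% and 50.6% of mOBs in S1 and S2 and in 84.8% and 78.6% in S3 and S4, and in 25.4% and 31.7% in S5 and S6 against 35.2% and 28.6% in S7 and S8. With each cell thinned to 5000 UMIs, which left out 39 WT and 31 Het mOBs, the shares were 16.7% and 25% against 60.8% and 54.0% for kit version 3, and 10.7% and 10.1% against 15.3% and 20.6% for kit version 3.1. Thus S8, which overlapped WT before thinning, was above both WT libraries of its kit version afterwards. S8 held 42 mOBs before thinning, and the thinning was a single random draw, so few cells decide this order. For Mthfd2 the thinned shares were 26.4%, 26.3%, 19.9% and 11.6% in WT and 45.6%, 59.7%, 33.7% and 44.1% in Het, with no overlap. Within each kit version the thinned shares of Psat1 were also higher in both Het libraries (12.5% and 13.2% against 55.7% and 54.0%, and 8.46% and 7.07% against 11.2% and 17.6%). Those of the other members overlapped within a kit version, as did Pycr1 with 25.7% and 24.2% in S5 and S6 against 13.3% and 41.2% in S7 and S8, and Psph with 6.62% and 4.55% against 8.16% and 2.94%. Of the cells of the same WT libraries that were not OBs, 10514 had under 5000 UMIs and were left out. In 2000 of the deeper ones, drawn at random and thinned to 5000 UMIs, Phgdh was detected in 10.4% to 14.0% and Mthfd2 in 10.8% to 18.4%. Over all WT cells that were not OBs, the median depth by library was 2577 to 13620 UMIs per cell, against 12495 to 21116 in WT mOBs. No cell type that should lack these enzymes was available to measure free RNA.

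Some markers of other cell types differed between genotypes in the same mOBs. Within each kit version the mural and fibroblast sums were higher and the haematopoietic sum lower in both Het libraries than in both WT libraries, while the chondrocyte sums overlapped with kit version 3. The 6 mural markers (Acta2, Myh11, Rgs5, Cspg4, Des and Kcnj8) summed to 0.00558% to 0.0212% of UMIs in WT and to 0.0217% to 0.0450% in Het mOBs, and Myh11, which defines smooth muscle, was at 0 UMIs in all 4 WT libraries and in Het S4 and S8. Acta2, smooth muscle actin, was itself called higher in Het mOBs (log2 fold change 1.55, adjusted p = 0.0349, edgeR). The 6 chondrocyte markers summed to 0.00222% to 0.0918% in WT and 0.0197% to 0.228% in Het mOBs. The 11 haematopoietic markers summed to 0.000957% to 0.0671% in WT and 0.000150% to 0.0164% in Het. The 5 fibroblast markers summed to 0.000960% to 0.00290% in WT and 0.00161% to 0.00951% in Het. The 5 erythroid markers summed to 0.00715% to 0.886% in WT and 0.00211% to 0.189% in Het, and the 6 endothelial markers to 0.000874% to 0.00153% and 0.000301% to 0.00300%. The part of these markers in the results was not tested. With OBs that held at least 3 markers of another class left out, 6 of 9 members were called, against 1.59% of all genes, and then the log2 fold changes of Phgdh and Psph were 1.67 and 1.98. The libraries lost cells unequally. Het mOBs went from 79 to 64 in S3, 192 to 172 in S4, 105 to 51 in S7 and 42 to 18 in S8. WT mOBs went from 73 to 61 in S1, 77 to 67 in S2, 299 to 192 in S5 and 208 to 130 in S6.

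Earlier stages gave no calls. In dOBs 0 of 9 members were called (0.0101% of all genes, that is 1 gene). All 9 were higher in Het, with a median log2 fold change of 0.61, and 6 had an unadjusted p under 0.05 by edgeR. Of all genes tested there, 48.9% were higher and 7.51% had such a p. The mural markers summed to 0.0353% to 0.0481% of UMIs in WT and to 0.0561% to 0.0715% in Het dOBs, while the sums of the other cell types overlapped. The part of these markers was not tested. In eOBs 0 of 7 members tested were called, as were 0% of all genes, and 4 of the 7 were higher, against 49.9% of all genes. An unadjusted p under 0.05 was reached by 1 of the 7 (Psph, −0.74 ± 0.33), against 3.82% of all genes. Over all OBs, 0 of 10 were called (0.0085% of all genes) and all 10 were higher, with a median of 0.87 and 8 unadjusted p under 0.05 by edgeR. Of all genes tested there, 49.8% were higher and 8.87% had such a p. DESeq2 called 0 members in dOBs (0.0406% of all genes), 0 in eOBs (0.037%) and 3 in all OBs (0.476%).

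Phgdh shows the course. In dOBs it was at 51.2, 79.1, 30.1 and 24.8 in WT and 112, 79.2, 38.5 and 46.5 in Het (log2 fold change 0.61 ± 0.18, adjusted p = 0.579), and in eOBs at 44.7, 56.1, 46.8 and 35.4 in WT and 70.4, 63.7, 25.04 and 30.6 in Het (−0.17 ± 0.28, adjusted p = 0.9999). In dOBs the Het libraries were above the WT libraries of their kit version, S4 over S2 only narrowly, and in eOBs the kit versions went opposite ways. Mthfd2 in dOBs was at 37.4, 70.6, 40.3 and 30.8 in WT and 108, 99.7, 50.5 and 61.6 in Het (0.80 ± 0.19, adjusted p = 0.525), and Aldh1l2 at 10.6, 6.41, 15.5 and 13.2 against 31.7, 29.8, 22.3 and 18.5 (0.86 ± 0.24, adjusted p = 0.579). Aldh1l2 and Shmt2 were the 2 members whose Het libraries were all above all WT libraries in dOBs, which held for 0.964% of all genes tested.

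**Figure D2:**
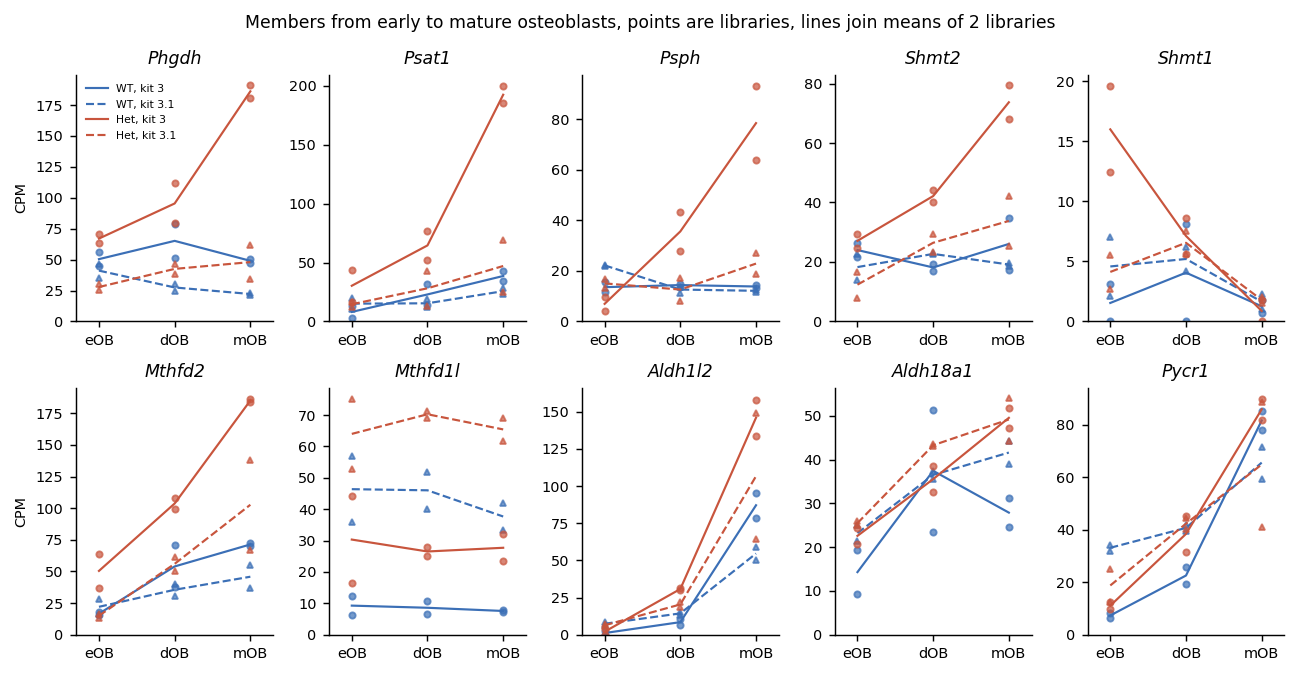
Level of each enzyme gene (y axis, CPM) in eOBs, dOBs and mOBs (x axis), with 1 point per library and lines through the mean of 2 libraries (blue WT, red Het; solid lines and circles kit version 3, dashed lines and triangles kit version 3.1). Aldh1l2 and Pycr1 are highest in mOBs in both genotypes, and Phgdh has means of 45.8 in eOBs and 35.6 in mOBs in WT and of 47.4 and 117 in Het.

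The difference of the Het effect between mOBs and dOBs was fitted with the library as a block. It was called for 0 of 9 members (0% of all genes), with an unadjusted p of 0.0116 for Phgdh (0.89 ± 0.30 larger in mOBs on the log2 scale, adjusted p = 0.996, edgeR) and 0.00854 for Psph (0.99 ± 0.32, adjusted p = 0.996), and 0 of 9 by DESeq2 (0.0284% of all genes). The other 7 differences ranged from −0.28 (Pycr1) to 0.63 (Shmt2). Of all genes, 4.61% had an unadjusted p under 0.05 for this difference by edgeR. Within finer Col1a1 ranges the serine enzymes summed in WT to 75.2 ± 9.01 CPM below 0.75% Col1a1, 72.1 ± 18.1 from 0.75% to 2%, 90.4 ± 63.2 to 3.5%, 87.7 ± 39.2 to 7% and 81.1 ± 20.7 above (SD, n = 4). In Het the same sums were 80.9 ± 29.6, 119 ± 43.5, 177 ± 141, 279 ± 239 and 302 ± 154. The WT value from 2% included S2 at 184, the other 3 WT libraries being at 49.8 to 73.9. No Het library rose through every range, and S3 and S4 were at 504 and 467 from 3.5% and at 454 and 397 above 7%. Across kit versions the genotypes overlapped in every range below 7%. In the range from 3.5%, S7 and S8 at 68.7 and 76.6 lay below WT S1 and S2 at 140 and 95.3 but above S5 and S6 of their own kit version at 60.4 and 55.1. Above 7% the libraries were at 57.2 to 100 in WT and at 114 to 454 in Het, where S3, S7 and S8 held 28, 27 and 21 cells.

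In WT alone, 5 of the genes rose with maturation. Between WT mOBs and eOBs, with the library as a block, 5 of 9 members were called, each higher in mOBs, against 15% of all genes. Aldh1l2 rose most, from 2.31, 0, 6.24 and 8.59 in eOBs to 95.4, 78.9, 50.4 and 58.9 in mOBs of S1, S2, S5 and S6, without overlap (log2 fold change 4.21 ± 0.46, adjusted p = 0.00123, edgeR, on 0 to 8 UMIs in eOBs). Pycr1 went from 8.48, 6.23, 32.0 and 34.3 to 78.0, 85.4, 71.8 and 59.5 (2.20 ± 0.45, adjusted p = 0.0164). Mthfd2 (1.94 ± 0.27, adjusted p = 0.0035), Psat1 (1.70 ± 0.34, adjusted p = 0.0152) and Aldh18a1 (1.27 ± 0.19, adjusted p = 0.00437) also rose, but the Psat1 call was lost without S6 (adjusted p = 0.0645). Phgdh and Psph, the serine enzymes that rose in Het mOBs, gave −0.03 ± 0.25 and −0.09 ± 0.29 in this comparison (adjusted p = 0.977 and 0.882), and Mthfd1l gave 0.07 ± 0.24 (adjusted p = 0.891). Markers of other cells differed between these stages too. In WT the chondrocyte markers summed to 0.0973%, 0.00187%, 2.41% and 1.63% of UMIs in eOBs of S1, S2, S5 and S6 and to 0.00222% to 0.0918% in mOBs, so S2 went the other way. The endothelial markers summed to 0.00249% to 0.0673% in eOBs against 0.000874% to 0.00153%, and the mural markers to 0.0311% to 0.0581% against 0.00558% to 0.0212%. Markers of dividing cells summed to 0.0362% to 0.0673% against 0.0192% to 0.0269%. The erythroid sums were 0.0153% to 1.96% against 0.00715% to 0.886%, and the haematopoietic sums 0.00601% to 0.101% against 0.000957% to 0.0671%. The fibroblast sums were 0% to 0.0124% against 0.000960% to 0.00290%. With OBs that held at least 3 markers of another class left out, the same 5 members were called, as were 1705 of 8543 genes.

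Outside the OBs no member passed the test between genotypes. In all other cells pooled, 0 of 10 were called (0% of 16502 genes; 25.7% of genes and 1 member, Psat1, had an unadjusted p under 0.05 by edgeR, and DESeq2 called 0 members and 11.7% of genes), and 3 were higher in Het. Phgdh was at 54.0, 69.4, 35.9 and 32.4 in WT and at 42.5, 45.4, 36.4 and 46.0 in Het other cells (log2 fold change −0.25 ± 0.27, adjusted p = 0.524). In S1 and S2 haematopoietic-like cells numbered 2524 and 2157 of 4530 and 4623 other cells, while S5 held 6026 chondrocyte-like cells of 10547, so the pooled values mix different cell types. The Het effect in these pooled cells differed between kit versions for 6 of 10 members (Phgdh, Psat1, Shmt1, Mthfd1l, Aldh1l2 and Pycr1), against 24.7% of all genes.

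Within single classes of other cells, added after the pooled values were seen, no member was called by edgeR. The counts were 0 of 10 in chondrocyte-like cells (0.0288% of all genes), 0 of 9 in haematopoietic-like cells (0.00902%), 0 of 7 in endothelial-like cells (1.19%) and 0 of 7 in mural-like cells (0.0337%). An unadjusted p under 0.05 was reached by 1, 2, 1 and 0 members, against 6.79%, 16.0%, 11.1% and 6.35% of all genes. The median log2 fold changes of the members were −0.01, −0.42, −0.00281 and 0.11. Chondrocyte-like cells, which secrete collagen of cartilage and also carry the mutation, had Phgdh at 43.4 ± 12.3 in WT and 50.6 ± 3.82 in Het (log2 fold change 0.19 ± 0.11) and Mthfd2 at 33.8 ± 3.84 and 29.7 ± 5.25 (−0.14 ± 0.08). The test of the difference between mOBs and all other cells called 0 of 10 members (0% of all genes, edgeR; 0 by DESeq2, against 0.105% of all genes), with an unadjusted p under 0.05 for 6 (Phgdh, Psat1, Psph, Shmt2, Mthfd2 and Mthfd1l) and differences of 1.41 to 2.07 on the log2 scale for these 6 (adjusted p = 0.663 for each). Of all genes, 7.50% had such an unadjusted p by edgeR.

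**Figure D3:**
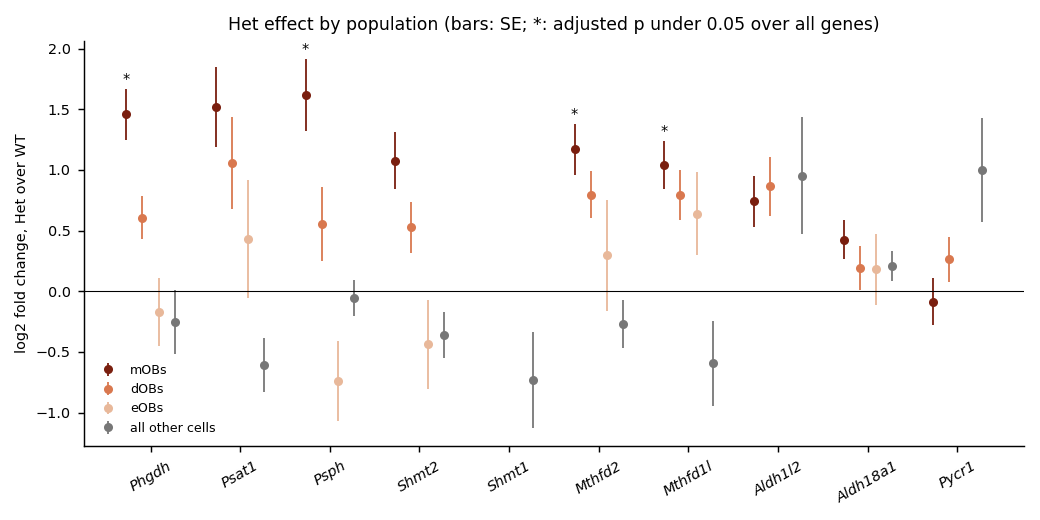
Log2 fold change of Het over WT (y axis) for each enzyme gene (x axis) in mOBs, dOBs, eOBs and all other cells, with SE bars; an asterisk marks an adjusted p under 0.05 over all genes tested. The mOB values of the serine enzymes, Shmt2 and the folate enzymes lie between 0.74 and 1.62, those of dOBs between 0.53 and 1.06, and Pycr1 in mOBs is at −0.09.

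The WT libraries show where the genes are normally transcribed. Of the 10 members, 1 was called between OBs and all other cells in WT, against 19% of all genes. This was Aldh1l2, at 38.2 ± 10.7 in OBs and 6.32 ± 4.84 in other cells (SD, n = 4; log2 fold change 2.91 ± 0.74, adjusted p = 0.0471, edgeR). The call was lost in 5 of 12 alternatives, among them those without S1, S2 or S6. By mean level Aldh1l2 stood highest in mOBs (70.9 ± 20.2) and lowest in haematopoietic-like cells (0.733 ± 0.476). After mOBs came fibroblast-like cells (15.3 ± 1.24, n = 3), chondrocyte-like cells (11.7 ± 4.03) and dOBs (11.4 ± 3.92), whose ranges over libraries overlapped. Pycr1 also had its highest mean in mOBs (73.7 ± 11.0), within the spread of chondrocyte-like cells (53.1 ± 14.9), and was at 31.7 ± 10.8 in dOBs, 20.3 ± 15.0 in eOBs, 3.85 ± 2.52 in haematopoietic-like cells and 2.73 ± 1.36 in endothelial-like cells. Fibroblast-like cells, which numbered 337, 10, 13 and 0 in the WT libraries, are left out of the other orders and of the plot.

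The serine and glycine enzymes had another order. Phgdh had its highest mean in haematopoietic-like cells (56.1 ± 46.2), within the spread of dOBs (46.3 ± 24.6), eOBs (45.8 ± 8.47), chondrocyte-like cells (43.4 ± 12.3) and mOBs (35.6 ± 15.6), and was low in mural-like (12.2 ± 8.51) and endothelial-like cells (6.30 ± 3.17). Psat1 was at 35.8 ± 6.01 in haematopoietic-like cells and 32.2 ± 8.60 in mOBs, and at 8.55 ± 3.76 in chondrocyte-like cells. Shmt1 reached 15.2 ± 3.48 in haematopoietic-like cells and no more than 4.64 ± 3.48 in the other populations plotted. Mthfd2 had its highest mean in mOBs (58.6 ± 16.6), within the spread of dOBs (44.8 ± 17.6) and haematopoietic-like cells (40.3 ± 6.72).

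**Figure D4:**
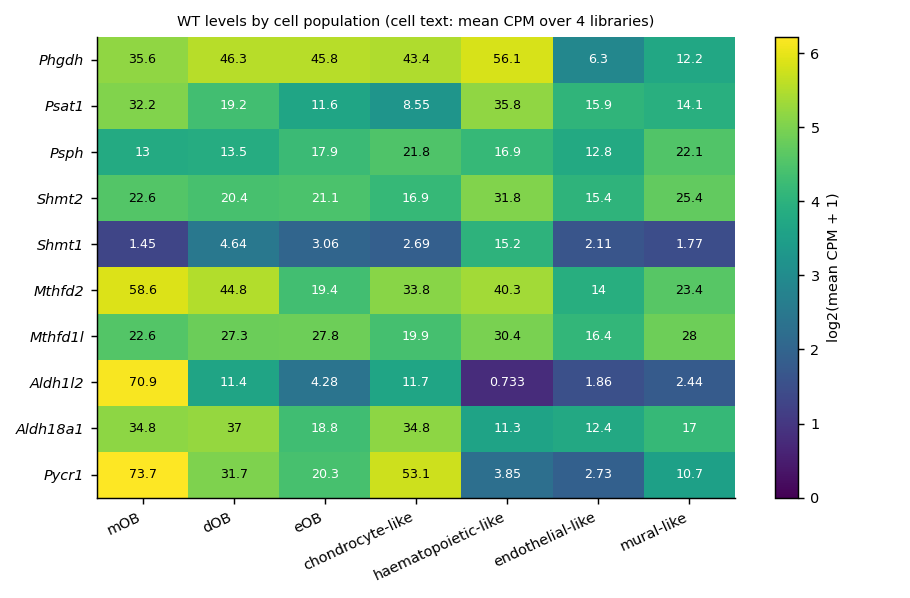
Mean level of each enzyme gene (rows; printed values in CPM, colour on a log2 scale after adding 1) in the WT libraries by cell population (columns). Aldh1l2 and Pycr1 have their highest means in mOBs (70.9 and 73.7), while Shmt1 has its highest mean in haematopoietic-like cells (15.2).

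No other gene tested in these pathways was called in mOBs. Of 44 other genes of serine and glycine use, the folate and methyl cycle and proline metabolism, 23 were tested in mOBs and 0 were called, 0 had an unadjusted p under 0.05 by edgeR, and 9 were higher in Het, with a median log2 fold change of −0.05. By list, 2 of 4 genes of serine and glycine use, 6 of 16 of the folate and methyl cycle and 1 of 3 of proline metabolism were higher. The values ran from −0.37 ± 0.24 for Fpgs, which adds glutamates to folate (adjusted p = 0.618), to 0.56 ± 0.29 for Slc19a1, the reduced folate carrier (adjusted p = 0.516). Mthfd2l, the close relative of Mthfd2 that serves the same mitochondrial step, gave −0.19 ± 0.19, and cytosolic Mthfd1 gave 0.32 ± 0.26. The rest of the 44 had counts too low to be tested, among them Cth, which makes cysteine from cystathionine and was at 0 in all 4 WT libraries and at 0 to 4.66 CPM in the Het libraries in mOBs.

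**Figure D5:**
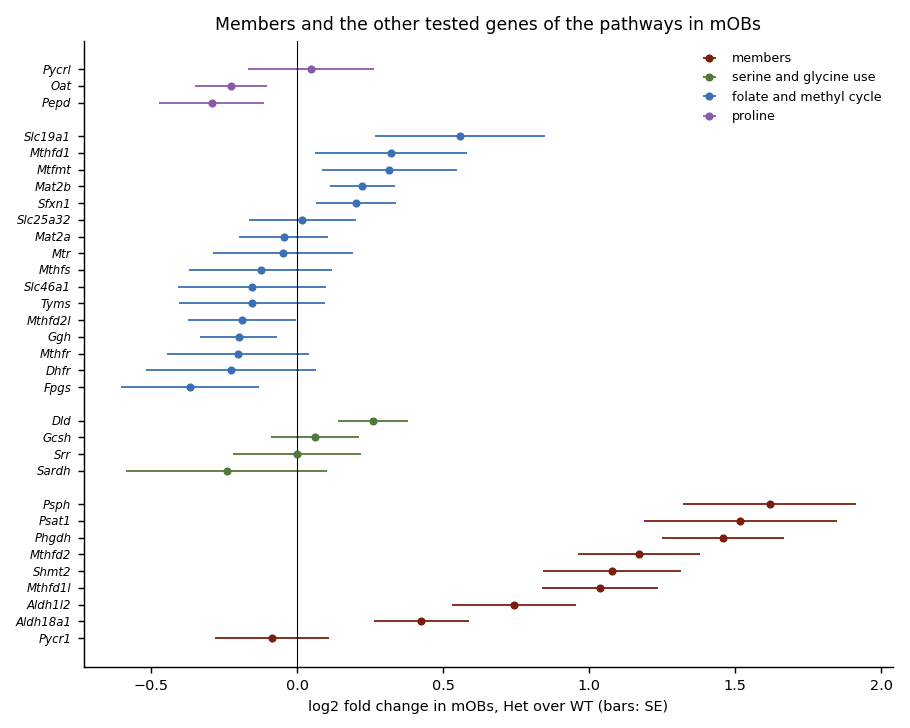
Log2 fold change of Het over WT in mOBs (x axis, SE bars) for the 9 tested enzyme genes followed here and the 23 other tested genes of the pathways (y axis, coloured by list). The 23 other genes lie between −0.37 and 0.56, and 7 of the 9 lie above that range.

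The library pattern of the serine enzymes (mean log2 level of Phgdh, Psat1 and Psph, centred within kit version) was most closely followed in mOBs by Eif4ebp1, a repressor of cap-dependent translation, with a root mean square difference of 0.212 over the 8 libraries. Next came Sars, the cytosolic seryl-tRNA synthetase (0.233), Phf10, a chromatin remodelling subunit (0.258), Acta2, smooth muscle actin (0.278), and Fdps, an enzyme of isoprenoid synthesis (0.279). The median over 5743 genes was 0.865. Of the members outside the profile, Mthfd1l (0.323) and Mthfd2 (0.333) were nearest to it and Pycr1 (0.838) farthest. Libraries of 1 genotype and kit version are alike in more than these genes, so the values describe likeness only. Acta2 is also one of the mural markers given above.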

How the data were processed

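Single-cell 3′ RNA-seq libraries of mouse parietal bone were analysed from the UMI counts that the authors deposited, raw whole-number counts per gene and cell made with Cell Ranger (5.0.0 for kit version 3, 6.0.1 for 3.1; build mm10 per the submitters' processing notes). Gene identifiers matched GENCODE M21 (GRCm38) for 99.9% of 31053 genes. Cells with at least 500 genes and under 10% mitochondrial UMIs were kept. OBs were cells with 10 or more Col1a1 UMIs in which Runx2, Sp7 or Ibsp reached 2 or more UMIs, for at least 2 of these 3 genes; the study's own UMI limits are not given in the sources used here, so cell numbers can differ from its own. No doublet caller was run; an alternative left out OBs with at least 3 markers of another class. Of the pairs of libraries, S4 and S5 shared the most barcodes by count (61, 0.618% of the smaller library) and S3 and S5 the most by share (33, 0.663%). Other cells were classed by marker counts, chondrocyte-like cells by Col2a1 of at least 1% of UMIs.

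Counts were summed per library and population (at least 10 cells) and fitted over all genes with edgeR 4.0.16 (limma 3.58.1, R 4.3.3): filterByExpr by group, TMM, glmQLFit and glmQLFTest with kit version or, for 2 populations of 1 library, the library as a block. Genes were called at a Benjamini-Hochberg adjusted p under 0.05. The scripts were tested on simulated data. DESeq2 1.42.0 and the other alternatives are given in the closing section. Cells were handled in Python 3.11.15 (scipy 1.17.1, numpy 2.4.6, pandas 2.3.3). Within a kit version the titles share numbers between genotypes, but nothing says that these pair animals. The deviations of same-numbered libraries in mOBs correlated at −0.05 (kit version 3) and −0.03 (3.1). This is 1 value per kit version and cannot exclude a pairing.

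The members, the gene lists and the tests were chosen with earlier results of these data known. Named are all 10 members, the pathway genes called in mOBs or with the largest rise or fall there, and the 5 genes most like the serine profile (mean of at least 20 CPM). Mthfd2l, Mthfd1 and Cth were named after their values were seen. A gene of the pathway list is not reported here. p-values measure the spread between libraries that each pool several animals.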

Additional observations from a re-analysis of the deposited data

Results flagged for a closer look

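Among 100 groups of 4 libraries, 6 held 1 library far from the other 3. For independent, normally distributed values chance gives this in about 1 in 20 groups. Here each group mixed kit versions and the populations overlapped, so the rate for these groups is not known. In CPM, Shmt2 in WT mOBs was at 34.7 in S2 against 17.4 to 19.6, and in all WT OBs at 29.5 in S2 against 20.03 to 21.4. Pycr1 in Het mOBs was at 41.1 in S7 against 81.9 to 90.0. Psat1 in Het eOBs was at 44.1 in S4 against 12.5 to 16.7, on 9 UMIs. Psph in other cells was at 16.7 in WT S1 against 17.8 to 17.96, and at 16.1 in Het S4 against 19.3 to 19.8.

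For 8 values the Het effect differed between kit versions, by the genotype by kit version term in edgeR adjusted over all genes. On the log2 scale, kit version 3.1 minus 3, the difference was −2.005 for Psph and −1.16 for Mthfd1l in all OBs. In all other cells it was 1.11 for Phgdh, 0.97 for Psat1, 1.84 for Shmt1, 1.59 for Mthfd1l, −2.25 for Aldh1l2 and −2.04 for Pycr1.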

How the results depend on the processing

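The number of members called in mOBs (4) became 7 without the filter on low counts, 0 without kit version in the model, 7 with kit version 3 alone, 0 with kit version 3.1 alone, and 0 with cells thinned to 2000 UMIs, where 3 members had counts enough to be tested. It ranged from 0 to 7 with 1 library left out. With a replicate block in place of kit version it was 1 (Phgdh), and the samples share only a number. DESeq2 called 6, RLE scaling 4, other Col1a1 limits 6, and both a limit of 5% mitochondrial UMIs and OB selection at 3 UMIs 3. Of all genes 0% to 5.26% were called in these mOB fits, the most with kit version 3 alone. In dOBs 5 members were called without the filter (1.39% of all genes), against 0. In all OBs 3 were called by DESeq2 (0.476%), 6 without the filter (0.695%), 8 with kit version 3 alone (7.33%), and 0 to 2 with 1 library left out, against 0. In all other cells 5 of 10 were called with kit version 3 alone (33.8% of all genes), against 0, and the difference between mOBs and dOBs was called for 1 member without the filter (0.447%). In WT, the count between mOBs and eOBs went from 5 to 0 with thinned cells, where 0 members had counts enough to be tested, and ranged from 4 to 5 with 1 library left out. The count between OBs and other cells went from 1 to 4 by DESeq2 (28.5% of all genes), 2 by RLE scaling (18.8%), 0 under 5% mitochondrial UMIs (16.3%), 2 with 3 UMIs for OB selection (19.7%), 3 without OBs holding markers of another class (22.3%), and 0 to 1 with 1 library left out. The causes were not tested, except that thinning leaves fewer counts. Of 83 results for single members, 10 were called, and all 10 kept their direction in every alternative that gave a value. Low counts limit Shmt1 in mOBs and all members in eOBs.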
